A study of Ascodesmis nigricans with 6 samples.

Results

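Of the 9622 gene models counted in Ascodesmis nigricans, a cup fungus, 61 kept a near-constant share of the reads in all 6 libraries, from vegetative mycelium to young fruiting bodies. They were chosen by their CPM, the raw count per 1000000 counts of the library's total. A gene had to reach at least 30 CPM in every library, and its highest library could be at most 1.5 times its lowest. The limit of 30 CPM alone was met by 1716 gene models, of which the 61 steady genes are 3.55%. Because these measured values chose the genes, their levels and ratios are given as a description and not as a test.

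All libraries came from strain CBS 389.68, grown for 3 days at 25 °C on microdissection slides that carried 150 to 200 µl of rabbit food agar medium with 0.8% agar. There were 3 groups of 2 biological replicates each: total sexual mycelium, total vegetative mycelium, and protoapothecia, the young fruiting bodies, which were cut out by laser microdissection. Material was fixed in ethanol and the RNA was linearly amplified, per the labels' protocols, which give 1 text for all samples. Library totals ran from 11589777 to 12835772 counts. The mycelium samples are whole mycelium, so their mix of cell types is not known. Laser microdissection was used for the fruiting bodies alone, and its effect cannot be told apart from that of the tissue.

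Genes with little change between tissues are commonly sought as reference genes, against which other transcripts are measured, and they often encode parts of the basic machinery of the cell. A CPM value is a share of the sequenced RNA and not an amount per cell. A gene can therefore keep its share while the RNA around it changes, and whether it is called steady depends on what it is measured against. In these bulk samples, fewer cells of a type and less RNA per cell cannot be told apart. The files give each gene model as a protein identifier with an mRNA length and do not pair it with a gene name or product, so no function is given for any of the 61 genes, no reference gene list could be matched, and the tissue labels could not be checked against marker genes.

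The steadiest gene was proteinId338619, with an mRNA of 1868 bases. It was at 249 and 276 CPM in sexual mycelium, 268 and 239 CPM in vegetative mycelium, and 245 and 283 CPM in protoapothecia. The ranges of the 3 tissues overlapped, and the replicates of each tissue lay on both sides of its mean over all libraries. Its highest library was 1.19 times its lowest, with a 95% counting interval of 1.13 to 1.24. Almost as steady was proteinId307878, at 491 and 563 CPM in sexual mycelium, 493 and 526 CPM in vegetative mycelium, and 545 and 474 CPM in protoapothecia. Here the widest gap between replicates, in sexual or protoapothecia samples, was nearly as large as the gap over all libraries. Its ratio of highest to lowest was 1.19 (95% counting interval 1.15 to 1.23).

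The next steadiest genes covered a wide range of levels. The gene proteinId339327 was at 43.8 and 48.3 CPM in sexual mycelium, 42.6 and 41.4 CPM in vegetative mycelium, and 47.7 and 49.7 CPM in protoapothecia, a ratio of 1.2. Both vegetative libraries were its lowest. The gene proteinId337941 had a ratio of 1.21, with 139 and 153 CPM in sexual mycelium, 159 and 141 CPM in vegetative mycelium, and 141 and 131 CPM in protoapothecia. In proteinId327582, with a ratio of 1.23, the protoapothecia replicates alone spanned nearly the whole range, at 396 and 485 CPM. Its other libraries were at 451 and 396 CPM in sexual and 454 and 482 CPM in vegetative mycelium.

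Such small ratios were rare among the 61 genes. Only 3 had a ratio of 1.2 or less, 10 had 1.3 or less, and 39 lay above 1.4, and the median was 1.43. The steady genes are thus the lower edge of a continuous distribution and not a group set apart. Over the 1716 gene models at 30 CPM or more, the median ratio of highest to lowest library was 3.27, 1404 had a ratio over 2, and 159 had a ratio over 10. Just above the limit, 42 gene models had a ratio over 1.5 and up to 1.6.

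**Figure D1:**
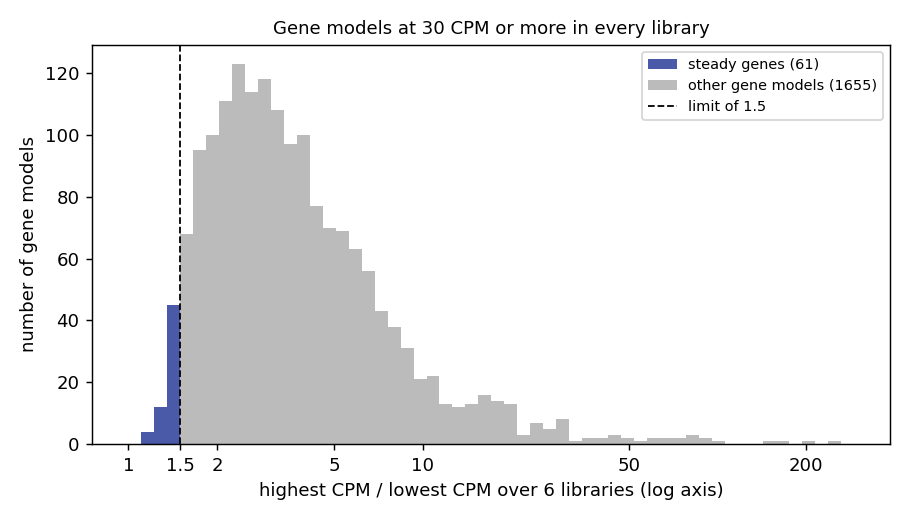
Number of gene models (vertical axis) by the ratio of their highest to their lowest CPM over the 6 libraries (horizontal log axis), for the 1716 gene models at 30 CPM or more in every library. The 61 steady genes, in blue, end at the dashed line at 1.5, on the rising side of a single peak, and the other 1655 gene models, in grey, reach a ratio of 239.

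The values next to the limits show how narrow the choice was. Just inside the ratio limit, proteinId330536 was at 181 and 190.4 CPM in sexual mycelium, 206 and 182 CPM in vegetative mycelium, and 137 and 146 CPM in protoapothecia. Just outside, with a ratio of 1.507, proteinId342955 was at 219 and 331 CPM in sexual mycelium, 283 and 270.4 CPM in vegetative mycelium, and 306 and 298 CPM in protoapothecia. In the first the protoapothecia were the low tissue, whereas in the second sexual replicate 1 alone lay apart. The second gene inside was proteinId340066, with a ratio of 1.498, and the second outside was proteinId341755, with a ratio of 1.508. At the level limit, the lowest libraries were at 31.6 CPM in proteinId393690 and 32.3 CPM in proteinId338664. The nearest genes left out, with ratios below 1.5, were proteinId11394 and proteinId338691, with lowest libraries at 29.4 and 29.1 CPM. Counting error alone reached over the ratio limit for many genes: the 95% exact (Clopper-Pearson) interval of the ratio went above 1.5 in 41 of the 61 steady genes, and reached down to 1.5 in 58 gene models at 30 CPM or more that were left out. Such intervals cover counting error only and leave out the spread between replicates. They also treat the highest and the lowest of the 6 libraries as if fixed beforehand, so their coverage need not be 95%. In addition, amplification can make several reads from 1 molecule.

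The steady genes together took about the same share of every library: 1.07% and 1.12% of all reads counted in the sexual libraries, 1.03% and 1.01% in the vegetative ones, and 1.08% and 1.17% in those of protoapothecia. Both vegetative libraries were the lowest and protoapothecia replicate 2 was the highest. Relative to each gene's mean over the libraries, the median steady gene was at 1.01 and 1.06 in sexual mycelium, 0.972 and 0.938 in vegetative mycelium, and 0.995 and 1.02 in protoapothecia. The highest library was a sexual one for 30 genes, a protoapothecia one for 21 and a vegetative one for 10, and the lowest was a vegetative one for 25, a protoapothecia one for 19 and a sexual one for 17. In 10 genes the highest and the lowest library were replicates of the same tissue, 6 times sexual and 4 times protoapothecia.

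**Figure D2:**
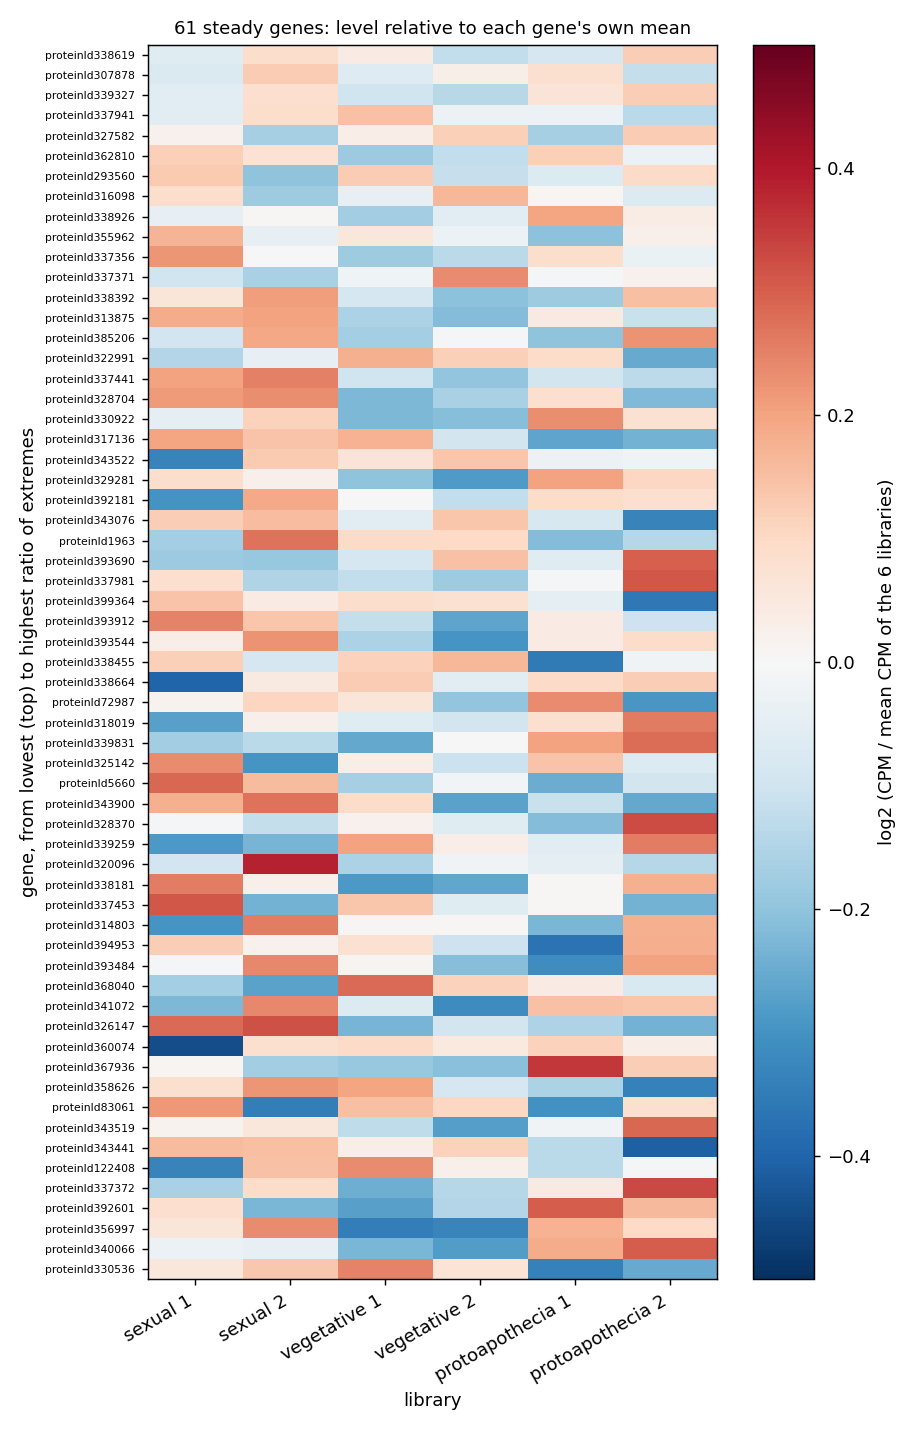
Level of each of the 61 steady genes (rows, from the smallest ratio of extremes at the top to the largest at the bottom) in each library (columns), as the log2 of its CPM over its mean CPM in the 6 libraries. Red is above and blue below the gene's own mean, and no single library or tissue is red or blue in every gene, while vegetative replicate 2 is below the gene mean in 41 of the 61 genes and sexual replicate 2 in 20.

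With library totals, the widest replicate gap of the median steady gene was about as large as the gap between tissue means. The choice of the genes keeps both gaps small, so their likeness is a description and not a test. A replicate pair compares single libraries and a tissue mean averages them, so these measures are not of the same kind. The ratio of the higher to the lower replicate had a median over the 61 genes of 1.11 in sexual mycelium, 1.09 in vegetative mycelium and 1.12 in protoapothecia. For the widest of a gene's 3 replicate pairs the median was 1.22, and for the ratio of its highest to its lowest tissue mean it was also 1.22. In 32 of the 61 genes at least 1 replicate pair lay wider apart than the tissue means, and in 29 the tissue means lay wider apart than every replicate pair. Among the 1655 other gene models at 30 CPM or more, 1504 (90.9%) had tissue means wider apart than every replicate pair, a contrast that the choice of the genes itself brings about.

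Agreement between replicates did not by itself make a gene steady. Of the 1716 gene models at 30 CPM or more, 1635 had their vegetative replicates within 1.5 times of each other, 1510 their protoapothecia replicates and 1329 their sexual replicates, and 1163 (67.8%) met this in all tissues at once. The 61 steady genes were 5.25% of those 1163. With 2 tissues in place of 3, the 4 libraries of sexual and vegetative mycelium lay within 1.5 times of each other in 338 gene models, those of protoapothecia and vegetative mycelium in 302, and those of protoapothecia and sexual mycelium in 266.

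Within the permitted range, some steady genes still had a tissue whose libraries both lay outside those of the other tissues. These orders hold for CPM by library totals, and with the other scalings treated below they can change or reverse. Sexual mycelium was highest by the widest margin in proteinId326147, at 335 and 343 CPM against 235 and 258 CPM in vegetative mycelium and 248 and 234 CPM in protoapothecia. The same pattern at a lower level was seen in proteinId337441, at 43.2 and 44.8 CPM in sexual mycelium, 35.1 and 32.8 CPM in vegetative mycelium, and 35.3 and 34.4 CPM in protoapothecia. The opposite order was found in proteinId339259, which was at 137 and 142 CPM in sexual mycelium, 193 and 171 CPM in vegetative mycelium, and 161 and 200.2 CPM in protoapothecia. In all 3 genes the sexual libraries did not overlap with the other libraries.

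By library totals, vegetative mycelium stood apart in other genes. Its libraries were the highest in proteinId368040, at 54.3 and 48.3 CPM, against 39.7 and 37.1 CPM in sexual mycelium and 45.9 and 42.4 CPM in protoapothecia. They were the lowest in proteinId356997, at 49.9 and 50.4 CPM, against 66.0 and 74.6 CPM in sexual mycelium and 71.5 and 67.8 CPM in protoapothecia. Protoapothecia were the high tissue in proteinId340066, named above, at 227 and 247 CPM against 196 and 194 CPM in sexual and 170.3 and 165 CPM in vegetative mycelium, and the low tissue in proteinId330536 and in proteinId343441. The last gene was at 48.5 and 48.2 CPM in sexual mycelium, 44.5 and 47.1 CPM in vegetative mycelium, and 39.6 and 32.7 CPM in protoapothecia.

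Between 2 tissues at a time, separation of both libraries from both others was less frequent than in the table as a whole, as the limit of 1.5 implies. Both protoapothecia libraries lay above both sexual libraries in 12 steady genes and below them in 13, against 83.7% of the 8861 genes tested with groups that did not overlap in either direction. Against vegetative mycelium, protoapothecia were higher in 21 and lower in 13 steady genes (89.4% of all genes tested did not overlap). Sexual mycelium was above vegetative mycelium in 21 and below it in 6 (86.7% of all genes tested did not overlap).

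**Figure D3:**
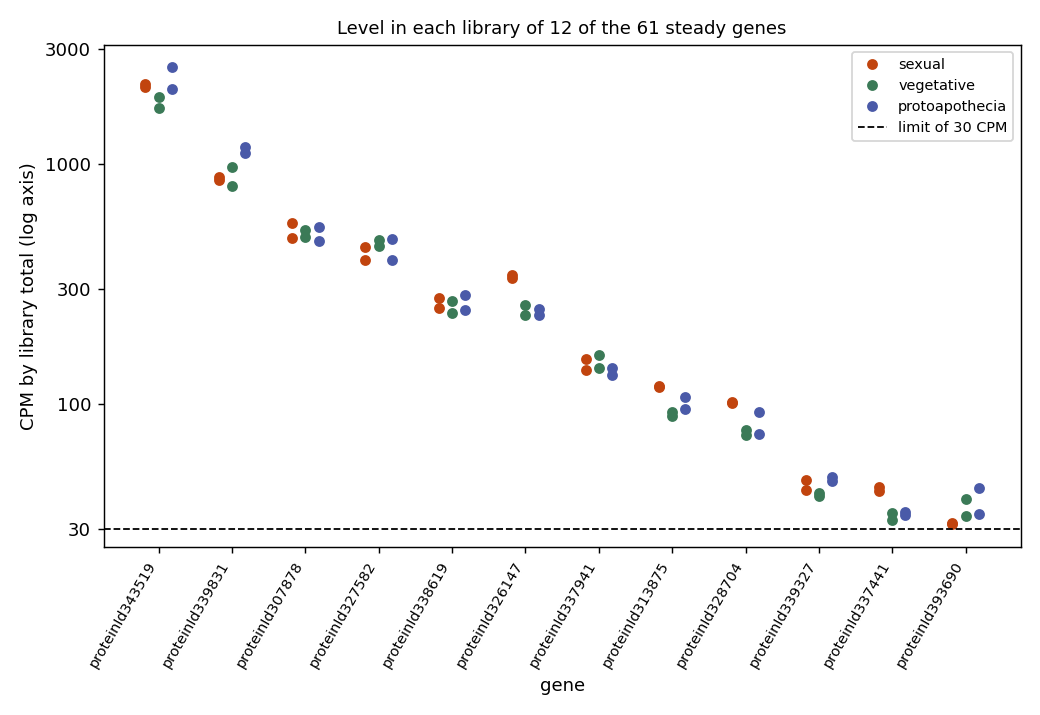
CPM by library total (vertical log axis) of 12 of the 61 steady genes (horizontal axis), with 1 point per library, 2 for each of the 3 tissues. Levels run from 2512 CPM in proteinId343519 down to 31.6 CPM in proteinId393690, just above the dashed limit of 30 CPM, and within a gene the points stay close together.

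The steady genes covered a wide range of expression. Their mean CPM over the 6 libraries had a median of 90.0 and was below 50 in 10 genes, 50 to 100 in 23, 100 to 300 in 19, and 300 or more in 9. The largest share of reads was taken by proteinId343519, with an mRNA of 860 bases. It was at 2080.5 and 2137 CPM in sexual mycelium, 1884 and 1698 CPM in vegetative mycelium, and 2034 and 2512 CPM in protoapothecia, a ratio of 1.48, with the vegetative libraries lowest. Together with proteinId339831 it made up 26.1% to 31.6% of the reads of the steady genes in each library, so the summed share above rests in good part on this pair. The gene proteinId339831 was at 854 and 878 CPM in sexual mycelium, 808 and 965 CPM in vegetative mycelium, and 1108 and 1169 CPM in protoapothecia, where both libraries were above all others.

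Levels were also divided by mRNA length, which takes reads to grow with length. Whether they do so in this amplified RNA was not tested. On this scale proteinId343519 also led, with a mean of 2393 CPM per kb. It was followed by proteinId327582 at 536 and proteinId339831 at 483 CPM per kb. The lowest mean was 10.4 CPM per kb in proteinId330922, whose mRNA of 8297 bases was the longest of the 61. Its level was 83.4 and 93.4 CPM in sexual mycelium, 73.8 and 74.4 CPM in vegetative mycelium, and 101 and 90.8 CPM in protoapothecia. The median of the steady genes was 70.0 CPM per kb. In the other 1655 gene models at 30 CPM or more it was 111 CPM per kb. The choice of the genes itself favours this gap, because the limit on the ratio keeps a steady gene's mean near its lowest library. In the other gene models higher libraries can raise the mean further, so the gap is a description and not a test. None of the 61 was among the 12 gene models that ranked in the 100 most abundant of every tissue by CPM, and proteinId343519 alone reached the first 100, in sexual mycelium at place 40 and in protoapothecia at place 75.

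Transcript length, which the choice of the genes did not use directly, ranged from 413 to 8297 bases in the steady genes with a median of 1260. The other gene models at 30 CPM or more had a median of 1409 and all 9622 gene models a median of 1230 bases. The lower and upper quartiles of the steady genes were at 960 and 1819 bases, against 954 and 1988.5 bases in the other gene models at 30 CPM or more. The shortest steady gene, proteinId328370, with 413 bases, was at 132 and 123 CPM in sexual mycelium, 135 and 128 CPM in vegetative mycelium, and 115 and 167 CPM in protoapothecia. Its protoapothecia replicates were its lowest and its highest library. The same held for proteinId394953, with 585 bases, at 42.6 and 62.3 CPM in protoapothecia.

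The other genes at the ends of the length range showed no common order of the tissues. After proteinId330922, the longest was proteinId314803, with 3520 bases, at 86.5 and 127 CPM in sexual mycelium, 106 and 107 CPM in vegetative mycelium, and 90.6 and 119.9 CPM in protoapothecia. Its sexual replicates were its lowest and its highest library. Next came proteinId393544, with 2647 bases, at 56.9 and 65.1 CPM, 49.95 and 45.4 CPM, and 57.3 and 59.3 CPM in the same order of tissues, where both vegetative libraries were lowest. The second shortest, proteinId338455, with 426 bases, was at 147 and 127 CPM, 146 and 151 CPM, and 106 and 133 CPM, and protoapothecia replicate 1 alone lay apart.

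At the low end of the level range, counting error is a larger part of the spread. The lowest count behind any value was 369, in sexual replicate 1 of proteinId393690, whose ratio of 1.41 had a 95% counting interval of 1.23 to 1.603. The gene proteinId392601 was at 42.2 and 34.0 CPM in sexual mycelium, 33.0 and 36.0 CPM in vegetative mycelium, and 49.2 and 44.6 CPM in protoapothecia, a ratio of 1.49 with an interval of 1.31 to 1.7. Protoapothecia were above all other libraries there. In proteinId1963, the second lowest per length at 16.5 CPM per kb, the level was 38.05 and 51.6 CPM, 45.7 and 45.8 CPM, and 36.8 and 38.7 CPM in the same order, and the sexual replicates spanned most of the range.

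The choice of the genes held their CPM within limits and set none on their place among all genes, which differed between tissues. Ranked by mean CPM within each tissue, the median steady gene was at place 1939 in sexual mycelium, 1838 in protoapothecia and 1429 in vegetative mycelium. Of the 61 genes, 45 had their lowest place in sexual mycelium and 47 their highest in vegetative mycelium. The shift was seen mainly at low levels: sexual mycelium was the lowest place for 31 of the 33 genes below a mean of 100 CPM and for 14 of the 28 at 100 CPM or more. For example, proteinId393690 was at place 4639 in sexual mycelium, where it had 31.8 and 31.6 CPM, and at place 2669 in vegetative mycelium, where it had 34.0 and 40.0 CPM. Beside this, the median CPM over all gene models was 27.2 and 30.4 in the sexual libraries, against 11.7 and 12.4 in the vegetative and 13.4 and 12.3 in the protoapothecia libraries. The number of gene models at 30 CPM or more was 4563 and 4840 in the sexual libraries, and 3058 to 3472 in the 4 others. What part this has in the shift of places was not tested.

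Whether the 61 genes were steady depended on how the libraries were scaled. Scaling by library totals, as in CPM, was set beside 3 methods that scale to the bulk of the genes: trimmed mean of M-values (TMM), relative log expression (RLE, the median of ratios used by DESeq2) and the upper quartile. The TMM factors were 1.32 and 1.41 for the sexual libraries, 0.840 and 0.819 for the vegetative libraries, and 0.895 and 0.872 for protoapothecia. A larger factor lowers every scaled level of that library, so with TMM scaling all 61 genes had their lowest library in sexual mycelium. Only 6 of the 61 still met both limits with TMM scaling, 9 with the upper quartile and 0 with RLE. The median ratio of highest to lowest library was 1.82 with TMM, 1.84 with the upper quartile and 2.27 with RLE.

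**Figure D4:**
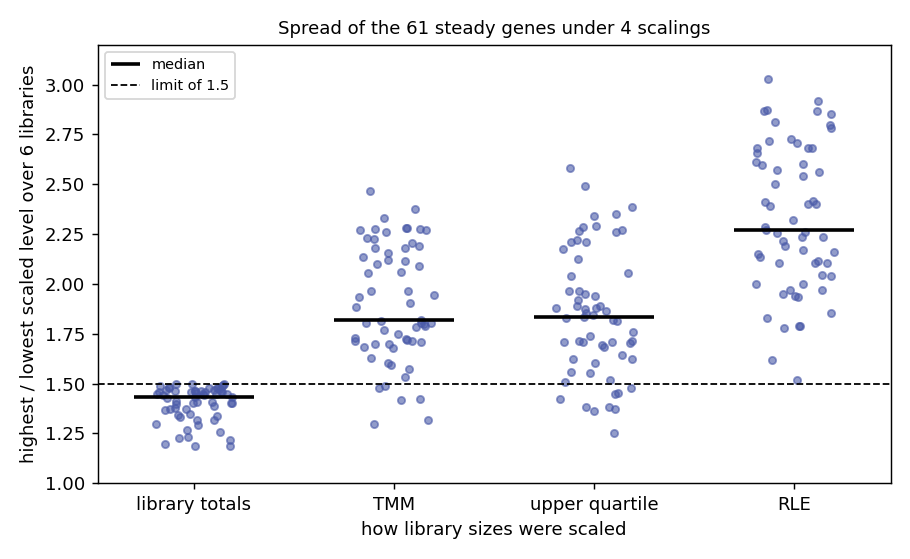
Ratio of the highest to the lowest scaled level over the 6 libraries (vertical axis) for each of the 61 steady genes (points), with library totals, TMM, upper-quartile and RLE scaling (horizontal axis). Bars mark the medians of 1.43, 1.82, 1.84 and 2.27, and with RLE all points lie above the dashed limit of 1.5.

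Other genes took their place under the other scalings. The same limits were met by 81 gene models with TMM scaling, of which the shared 6 are 7.41% (9.84% of the steady genes). With the upper quartile 109 gene models met them, of which the shared 9 are 8.26% (14.8% of the steady genes), and with RLE there were 55, none of them shared. The ratio between summed counts of 2 gene sets is the same under every scaling. The 61 steady genes had 0.961 and 0.923 times the counts of the 55 RLE-steady genes in the sexual libraries, 1.69 and 1.62 times in the vegetative libraries, and 1.79 and 1.86 times in protoapothecia. So the sets could not both be constant, as follows from how each was chosen. Over the 75 TMM-steady genes not among the 61, the mean of this ratio was 0.821 in sexual mycelium, 1.22 in vegetative mycelium and 1.27 in protoapothecia. Over the 100 such genes of the upper quartile it was graded, at 0.779 in sexual mycelium, 0.984 in protoapothecia and 1.19 in vegetative mycelium.

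Both limits were met with library totals, TMM and the upper quartile by 5 genes, chosen after their values were seen: proteinId326147, proteinId337441, proteinId313875, proteinId328704 and proteinId393912. The first 2 are given above. In proteinId313875 the levels were 117 and 118 CPM in sexual mycelium, 92.2 and 88.5 CPM in vegetative mycelium, and 106 and 95.4 CPM in protoapothecia. In proteinId328704 they were 101 and 102 CPM, 74.4 and 77.7 CPM, and 92.0 and 74.5 CPM, in the same order. The gene proteinId393912 was at 212 and 197 CPM in sexual mycelium, 165 and 149 CPM in vegetative mycelium, and 184 and 167 CPM in protoapothecia. All 5 genes had their highest CPM in sexual mycelium. Meeting the limit of 1.5 with both library totals and TMM itself brings this about, because the TMM factors of the sexual libraries are larger. When each gene's highest ratio over the 4 scalings was taken, the lowest was that of proteinId326147, whose ratio was 1.47 with library totals, 1.298 with TMM, 1.45 with the upper quartile and 1.52 with RLE.

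Ratios between 2 steady genes in a library do not depend on scaling either. The level of proteinId307878 over that of proteinId338619 was 1.97 and 2.04 in sexual mycelium, 1.84 and 2.21 in vegetative mycelium, and 2.23 and 1.68 in protoapothecia, not corrected for length. The lowest and the highest of these ratios were the replicates of protoapothecia. Over all 1830 pairs of steady genes, the highest library's ratio was between 1.09 and 2.23 times the lowest, with a median of 1.602.

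The fits over all 8861 genes that passed the filter on low counts, which all 61 steady genes passed, show the same dependence. They were made with edgeR's quasi-likelihood test, and a gene was called at a Benjamini-Hochberg adjusted p under 0.05. Since the choice of the genes used these same contrasts, the counts of calls are a description. With library totals, 0 of the 61 genes were called in any comparison and 0 had an unadjusted p under 0.05, whereas 67.2% of all genes tested were called between protoapothecia and sexual mycelium, 75.0% between protoapothecia and vegetative mycelium, and 60.8% between sexual and vegetative mycelium. By DESeq2, which uses RLE factors, 54, 0 and 55 of the 61 were called in these comparisons, against 63.9%, 71.2% and 46.1% of all genes with an adjusted p. With 2 libraries a group the precision was limited. In the fit with library totals, the 95% interval of the log2 fold change had a median half-width of 0.56, so it lay within 1 log2 unit of 0 in every comparison for 57 of the 61 genes and within a fold of 1.5 for none.

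With TMM factors, 30 of the 61 genes were called higher in protoapothecia than in sexual mycelium and 0 lower, where 30.7% of all genes tested were called higher and 67.5% in either direction. The median log2 fold change was 0.61 over the steady genes and -0.16 over all genes tested. Between sexual and vegetative mycelium, 21 were called lower in the sexual libraries and 0 higher, where 14.8% of all genes tested were called lower and 45.5% in either direction, with medians of -0.63 and 0.42. Between protoapothecia and vegetative mycelium, 0 of 61 were called by edgeR and 1 had an unadjusted p under 0.05, against 75.1% called of all genes tested, with medians of -0.03 and 0.15. The upper quartile called 12 of the 61 lower in protoapothecia than in vegetative mycelium, with 0 higher, where 39.7% of all genes tested were called lower with that scaling. These TMM counts also moved with single libraries: the 30 became 16 without sexual replicate 2 and 13 without vegetative replicate 1, vegetative replicate 2 or protoapothecia replicate 2, and the 21 became 1 and 2 without vegetative replicates 1 and 2.

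**Figure D5:**
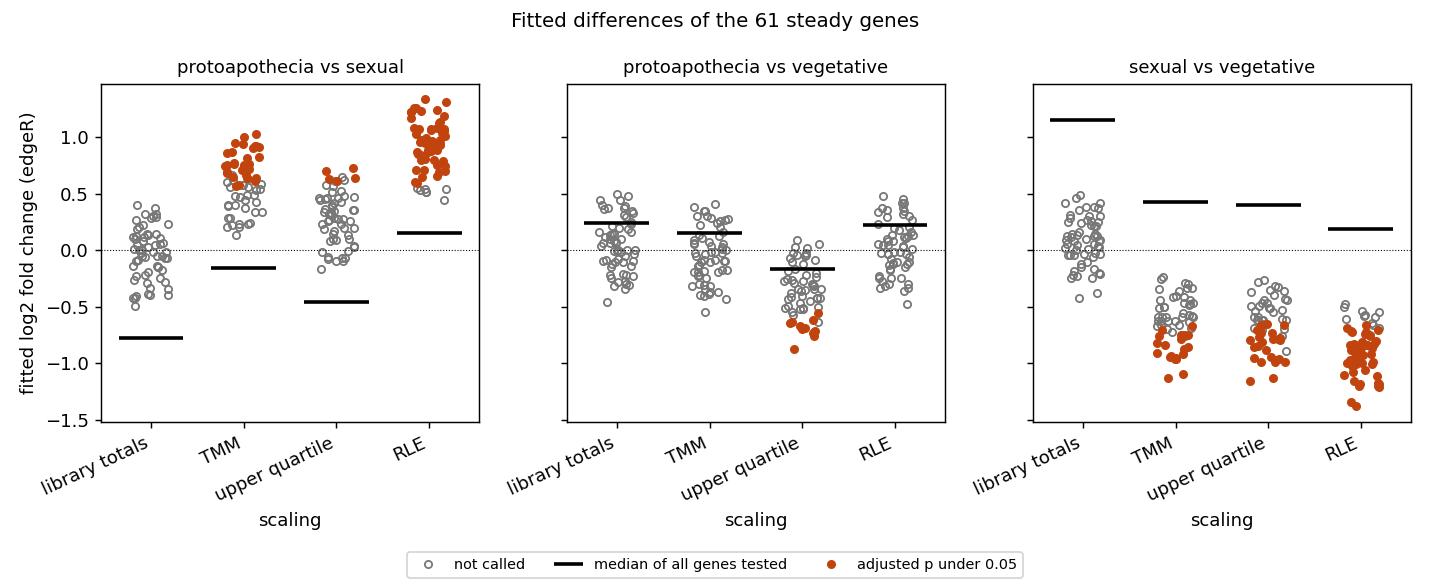
Fitted log2 fold change (vertical axis) of each of the 61 steady genes in the 3 comparisons (panels) under 4 scalings (horizontal axis), with filled points for an adjusted p under 0.05. The points shift together with the scaling, as does the bar for the median of all genes tested: for protoapothecia against sexual mycelium the bar moves from -0.78 with library totals to 0.15 with RLE.

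Relative to the median gene, the steady genes lay where the choice of the genes puts them. A scaling factor shifts every gene of a library alike, so the distance from the median of all genes tested hardly depends on it, and the limit of 1.5 holds the steady genes near a fold of 1 by library totals. On that scale the median log2 fold change of all genes tested was -0.78 for protoapothecia against sexual mycelium, 1.14 for sexual against vegetative mycelium and 0.24 for protoapothecia against vegetative mycelium. The medians of the steady genes were -0.02, 0.09 and 0.06.

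The choice of scaling also moved the balance of calls over all genes. Calls of higher genes in protoapothecia than in sexual mycelium numbered 2718 with TMM, 1842 with library totals, 2311 with the upper quartile and 3196 with RLE. Lower genes numbered 3267, 4110, 3685 and 2820, so with RLE the higher genes were the more numerous. Between sexual and vegetative mycelium, 2724 higher and 1309 lower genes were called with TMM, 4756 and 631 with library totals, 2679 and 1355 with the upper quartile, and 2271 and 1678 with RLE.

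Single genes show the size of these shifts. In proteinId339831, given above, the log2 fold change of protoapothecia over sexual mycelium was 1.02 with TMM factors (95% interval 0.47 to 1.58), the largest of the 61. In proteinId368040 that of sexual over vegetative mycelium was -1.13 (95% interval -1.66 to -0.60), the lowest of the 61. With TMM factors all 61 fold changes were positive in the first comparison and negative in the second, whereas with library totals 29 and 41 of the 61 were positive. Under none of the 4 scalings were proteinId326147, proteinId343900 and proteinId5660 called in any comparison, the only such genes of the 61, counted after their values were seen. The levels of proteinId5660 were 61.5 and 56.4 CPM in sexual mycelium, 45.0 and 50.02 CPM in vegetative mycelium, and 42.5 and 47.3 CPM in protoapothecia.

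The authors' deposited table gives DESeq ratios and adjusted p-values for all 61 genes. These p-values are rounded to 2 decimals, and genes printed at exactly 0.05 were not counted as below that limit, which leaves out 1 steady gene of protoapothecia over sexual mycelium and 4 of sexual over vegetative mycelium in the authors' deposited table. For protoapothecia over sexual mycelium, 54 of the 61 have in the authors' deposited table an adjusted p under 0.05 and a ratio above 1 (63.9% of all genes with a p are below that limit in either direction), with a median ratio of 1.89 and a range of 1.35 to 2.5. For sexual over vegetative mycelium the authors' deposited table has 53 of the 61 below the limit, all lower in sexual mycelium (46.5% of all genes with a p), with a median ratio of 0.55. For protoapothecia over vegetative mycelium the authors' deposited table has 0 of the 61 below the limit (71.3% of all genes with a p), and the ratios lie between 0.72 and 1.38.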

How the data were processed

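The deposited table holds raw read counts of 9622 gene models in 6 libraries, per the file headers, with mRNA lengths and the authors' own DESeq ratios and adjusted p-values, rounded to 2 decimals. DESeq is named without a version in the submitters' processing notes. The aligner, the counting tool, strand use, the treatment of reads shared by similar genes, the genome build and the annotation are not given in the sources used. Count columns were assigned by the sample title in their names. CPM used column totals. Calls came from edgeR 4.0.16 (limma 3.58.1, R 4.3.3): filterByExpr, TMM factors, robust quasi-likelihood fit of all 6 libraries by group, 3 residual degrees of freedom, two-sided, adjusted over all genes tested. DESeq2 1.42.0, other scalings, other limits, no filter, 2 groups alone, a replicate block and leaving out each library were alternatives. The test was checked on simulated counts. Chi-square over its degrees of freedom between replicates was 263 in sexual mycelium, 49.0 in vegetative mycelium and 109 in protoapothecia, so no library was a duplicate. The genes and lists were chosen with earlier results of these data known. Genes named were those at the extremes of ratio, level, length, level per length, fitted change and separation of a tissue, and those next to each limit. Intervals of ratios are 95% exact counting intervals. LOX and "classic" columns were not used.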

Additional observations from a re-analysis of the deposited data

How the results depend on the processing

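The number of steady genes depended on the limits: 82 with 10 CPM, 22 with 100 CPM, 10 with a ratio of up to 1.3 and 312 with up to 2, against 61. With 30 RPKM (CPM per kb) as the level limit there were 48, of which 46 are among the 61. By scaling there were 81 (TMM), 55 (RLE) and 109 (upper quartile). Leaving out 1 library, which by construction loosens the limits, gave 78 to 124 genes, with 95 and 124 without sexual replicates 1 and 2 and 99 without either protoapothecia replicate. Of the 61, the number called between protoapothecia and sexual mycelium was 30 with TMM, 54 with RLE, 5 with the upper quartile, 0 with library totals, 19 with the 2 groups alone, 54 with DESeq2 and 13 to 23 without 1 library. Between protoapothecia and vegetative mycelium it was 0 with TMM, 12 with the upper quartile, 1 with the 2 groups alone and 0 to 1 without 1 library. Between sexual and vegetative mycelium it was 21 with TMM, 49 with RLE, 0 with library totals, 47 with the 2 groups alone, 55 with DESeq2 and 1 to 23 without 1 library. With the upper quartile, 25 of the 61 were called in this last comparison. Calls over all genes follow for TMM, RLE, upper quartile, library totals, 2 groups alone and DESeq2. They numbered 5985, 6016, 5996, 5952, 5574 and 6103 between protoapothecia and sexual mycelium. Between protoapothecia and vegetative mycelium they numbered 6657, 6659, 6717, 6642, 6588 and 6807. Between sexual and vegetative mycelium they numbered 4033, 3949, 4034, 5387, 4263 and 4232. Over all genes, calls stayed within 1.5 times under the alternatives run, except for sexual against vegetative mycelium (4033). Without 1 library that count was 2129 to 4276, and it was lowest without vegetative replicates 1 (2129) and 2 (2421). Why single libraries, the 2 groups alone and DESeq2 moved these counts was not tested. Whether samples with the same replicate number shared a culture or day is not stated. Deviations of same-numbered libraries correlated at -0.20 (sexual and vegetative), 0.06 (sexual and protoapothecia) and -0.04 (vegetative and protoapothecia). With 2 libraries a group, these values cannot decide whether the samples were paired. With a replicate block 20, 0 and 15 of the 61 were called in the 3 comparisons, and 5698, 6472 and 3696 of all genes. At the lowest steady count of 369, depth limits the ratios as the counting intervals show.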
